A study of Mus musculus with 2 samples.

Results

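The keratocytes described here are 315 cells of an uninjured mouse cornea, picked by their transcripts from a single-cell library of 6740 cells. They make up 4.67% of that library (95% exact binomial interval 4.18% to 5.20%). Each had fewer than 3000 CPM (unique molecular identifiers, UMIs, of a gene in 1000000 UMIs of the cell) of the basal epithelial keratins Krt5 and Krt14 together, at least 10000 CPM of Dcn, Lum and Kera together, and at least 1000 CPM of Kera. The study profiled cornea and limbus, the rim around the cornea, of 1 wild-type mouse after NaOH injury and of 1 uninjured wild-type control mouse. The control library holds the keratocytes and the cells they are set against, and the injured library holds a further 715 stromal cells that pass the keratin and Dcn, Lum and Kera limits. The labels state neither the time after injury nor the age of the mice.

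Keratocytes are the resident cells of the corneal stroma, the collagen layer that gives the cornea its strength and clarity. They lay down thin collagen fibrils at regular spacing and coat them with small leucine-rich proteoglycans, whose keratan sulfate and dermatan sulfate chains hold water and keep the fibrils apart. In a healthy cornea they seldom divide, and they fill their cytoplasm with soluble enzymes known as corneal crystallins; after a wound they can turn into repair fibroblasts.

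The deposited injured library holds 9399 barcodes, of which 8146 were kept. The uninjured library holds 7490 barcodes, of which 670 had fewer than 1000 UMIs and 80 of the rest had over 20% mitochondrial UMIs. The keratocytes carried 2005923 UMIs in all, with a median of 6469 UMIs and 2187 genes per cell, against a median of 10807 UMIs in the 6425 other uninjured cells. Of the barcodes, 15 occur in both libraries, and 0 of them belong to a keratocyte. Each group is 1 library from 1 mouse, so no test was made: every interval below is a 95% Poisson, binomial or conditional binomial interval, and covers counting error only. Differences between the libraries cannot be told apart from differences between the 2 mice.

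Kera separated the stromal cells of the uninjured library into groups with few cells between them. Of 450 stromal cells, 114 had no Kera UMI, 13 had between 500 and 1000 CPM and 7 had between 1000 and 1500 CPM. The members just inside the limit had 1006, 1082 and 1083 CPM of Kera, and the cells just outside it had 904, 938 and 986 CPM. The lowest members reached 13582, 19483 and 21154 CPM of Dcn, Lum and Kera together, and 2 cells failed that limit alone, with 3671 and 9669 CPM. A further 12 cells failed the keratin limit alone. The 135 stromal cells below the Kera limit, called Kera-low stromal cells here, served as the nearest neighbours for comparison; their median depth was 4262 UMIs.

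**Figure D1:**
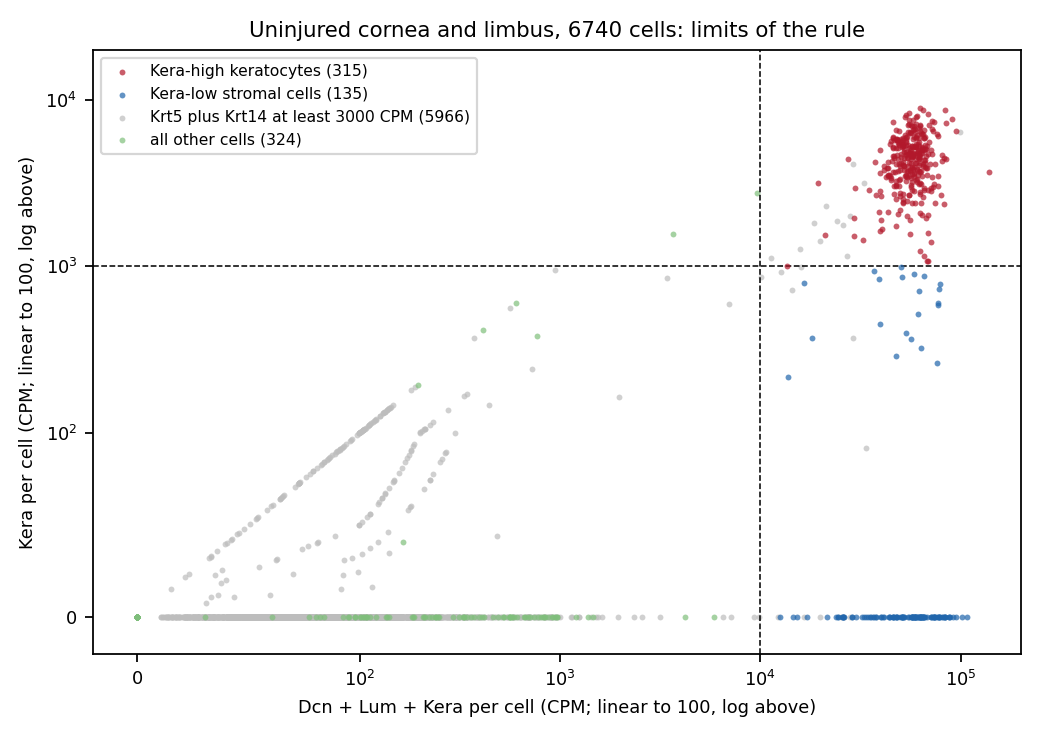
Kera level of each uninjured cell (vertical axis, CPM) against its summed level of Dcn, Lum and Kera (horizontal axis, CPM), both linear to 100 and logarithmic above; dashed lines are the limits of 1000 and 10000 CPM. The 315 keratocytes (red) form a compact cloud at the upper right, and 114 of the 135 Kera-low stromal cells (blue) lie on the line of no Kera.

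The keratocyte markers that the limits had not used, Angptl7 and Chst5, were both detected in most of the cells. They were chosen with earlier results of these data known, so they describe the cells and are no independent check of the name. Angptl7, a secreted angiopoietin-like protein of the stroma, had a UMI in 87.0% of keratocytes against 3.96% of the 5966 keratin-high cells, those with at least 3000 CPM of Krt5 and Krt14, whose median depth was 11071 UMIs. Chst5, the sulfotransferase that sulfates keratan sulfate in the mouse cornea, had a UMI in 77.5% of keratocytes against 0.453% of keratin-high cells. With every cell thinned to 1000 UMIs these shares were 78.7% against 0.587% for Angptl7 and 22.2% against 0.0168% for Chst5. Kera-low stromal cells had a UMI of Angptl7 in 46.7% and of Chst5 in 20.7% of cells, or 37.8% and 5.19% after thinning. Across the single keratocytes Kera ran from 1006 to 8942 CPM with a median of 4429 CPM, and Angptl7 ran from 0 to 16158 CPM with a median of 3378 CPM. Dcn, the gene for decorin, had a median of 44832 CPM, and 310 of the 315 cells had a Lum UMI.

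The marker lists of other cell types were low, apart from single genes of the endothelial lists. The summed level of 6 Schwann cell markers was 1.99 CPM in keratocytes, against 11867 CPM in the 27 cells gated as Schwann cells. The 6 immune markers summed to 15.95 CPM against 31434 CPM in 15 immune cells, with Ptprc, the pan-leukocyte gene, at 0 UMIs. The 6 mural markers summed to 16.5 CPM against 10316 CPM in 56 mural cells. The 5 melanocyte markers summed to 3.99 CPM. The vascular endothelial markers summed to 125 CPM, but 124 CPM of this was Kdr, while Cdh5, Flt1 and Emcn were at 0 UMIs. The 5 corneal endothelial markers summed to 189.9 CPM in keratocytes against 10.7 CPM in all other cells, and 184 CPM of this was Col8a2, a collagen gene that stood at 183 CPM in Kera-low stromal cells as well. Of the rest, Slc4a11, a membrane transporter of the corneal endothelium, had 5 UMIs (2.49 CPM) and Car3 had 0.

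Epithelial transcripts were present in the keratocytes. Krt12, the keratin of the corneal epithelium, was at 986 CPM in keratocytes against 19581 CPM in keratin-high cells, or 5.03% of that level. Epcam, Cdh1 and Trp63 stood at 3.94% to 7.25%; the levels of Krt5 and Krt14 were set by the limits. In 4 other gated populations, vascular, mural, Schwann and immune, Krt12 was at 6.22% to 16.5% of the keratin-high level. A Krt12 UMI was seen in 314 of the 315 keratocytes, although Krt12 is an epithelial gene. The part that free epithelial RNA plays in any single gene was not tested. The keratin-high level is given below for some genes only, and where it is left out it may exceed that of the keratocytes.

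Relative to all other uninjured cells, 27.3% of 6242 measured genes were at least 2-fold higher and 19.3% at least 2-fold lower in keratocytes, with a median log2 ratio of 0.09. Because the cells were chosen by their transcripts, and 5966 of the 6425 other cells are keratin-high, these ratios describe the cells and test nothing. The 30 genes with the largest ratios, chosen among genes of at least 100 CPM seen in at least 20% of keratocytes, ran from 494-fold for Kera to 173-fold for Olfml3. All 30 were also at least 2-fold higher in keratocytes than in Kera-low stromal cells, from 2.03-fold for Olfml3 and Pantr1 to 43.4-fold for Kera.

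**Figure D2:**
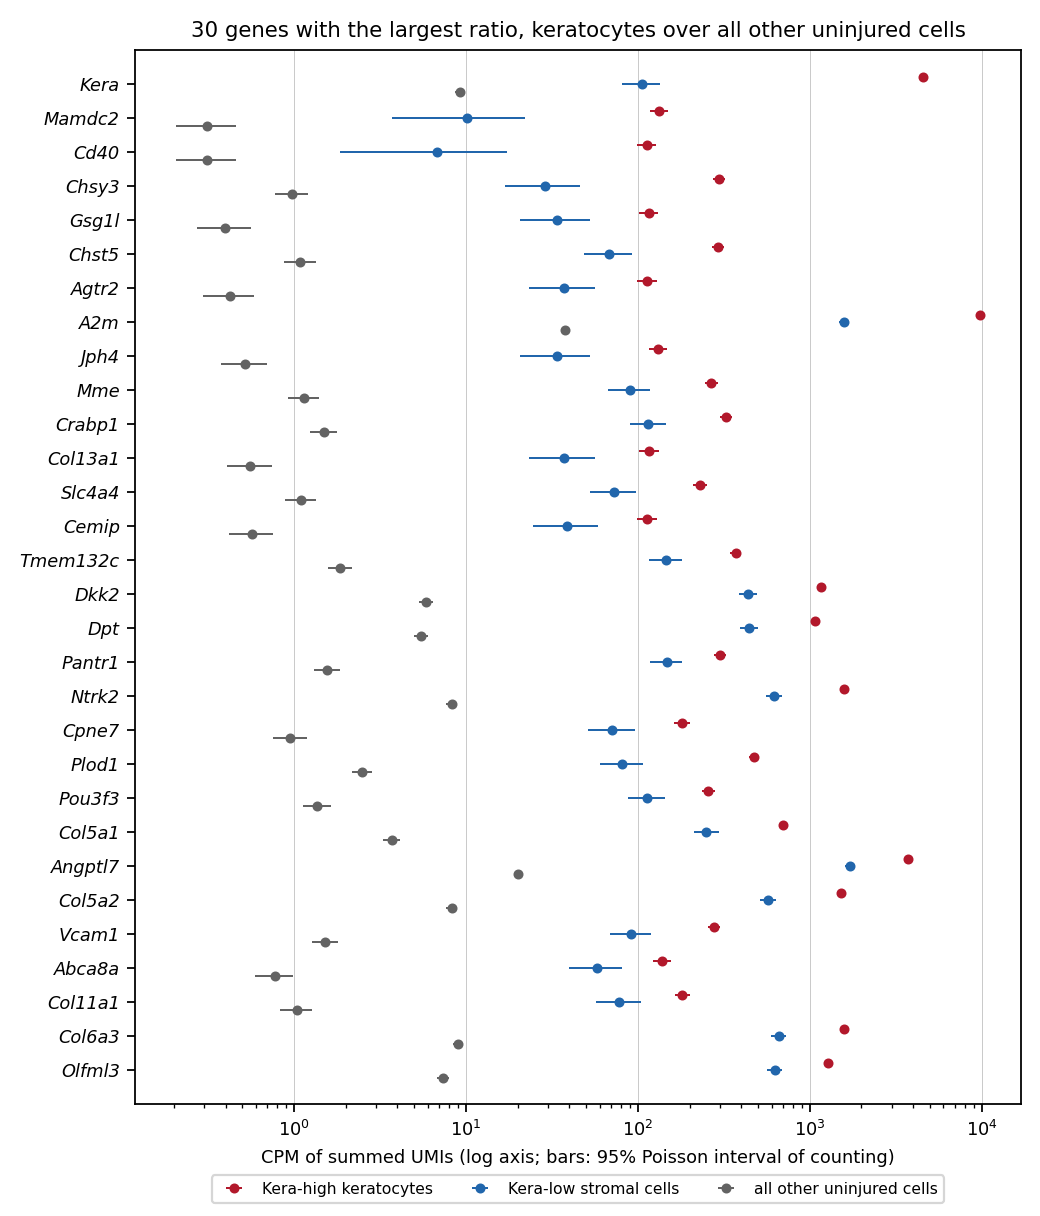
Level (CPM of summed UMIs, log axis) of the 30 genes with the largest ratio in 315 keratocytes (red), 135 Kera-low stromal cells (blue) and all 6425 other uninjured cells (grey); bars are 95% Poisson intervals of counting. For every gene the keratocytes are rightmost and the Kera-low stromal cells lie between the others.

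The 30 genes included proteoglycans and enzymes that build their sugar chains, beside Kera, which the limits fixed. Kera averaged 4568 CPM in keratocytes (interval 4475 to 4662), against 9.24 CPM in all other cells and 105 CPM in Kera-low stromal cells. Mamdc2, a secreted proteoglycan with MAM domains, was at 133 CPM against 0.314 CPM in all other cells, 423-fold higher (282 to 659). Chsy3, a chondroitin sulfate synthase, was at 297 CPM against 0.978 CPM, 304-fold higher (241 to 388). Chst5 was at 294 CPM against 1.09 CPM, 271-fold higher (217 to 342). These enzymes were lower in Kera-low stromal cells too, at 28.8 CPM for Chsy3 and 67.9 CPM for Chst5.

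The sequence just before the RefSeq start of Kera, the gene that defines these cells, and of Angptl7, the marker that the limits did not use, is shown to place both genes in the genome; a further window, before the RefSeq start of Gpha2, is shown because of the levels of that gene described further on. Each is the RefSeq window of 250 bases before the gene's start in GRCm38.p6, printed 5′ to 3′ on the gene's strand, with matches to the searched motifs in capitals. The windows are chr10:97606955-97607204 on the plus strand for Kera, chr4:148500463-148500712 on the minus strand for Angptl7 and chr19:6226151-6226400 on the plus strand for Gpha2. GENCODE M21 starts the Kera gene at 97606879 and the Gpha2 gene at 6226380, so by that annotation the Kera window lies inside the gene and the Gpha2 window runs past the start.
Kera: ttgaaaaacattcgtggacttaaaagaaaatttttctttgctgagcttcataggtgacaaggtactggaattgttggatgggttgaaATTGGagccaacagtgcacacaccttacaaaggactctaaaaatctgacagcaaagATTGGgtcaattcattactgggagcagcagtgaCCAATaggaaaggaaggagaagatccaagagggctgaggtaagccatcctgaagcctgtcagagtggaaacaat
Angptl7: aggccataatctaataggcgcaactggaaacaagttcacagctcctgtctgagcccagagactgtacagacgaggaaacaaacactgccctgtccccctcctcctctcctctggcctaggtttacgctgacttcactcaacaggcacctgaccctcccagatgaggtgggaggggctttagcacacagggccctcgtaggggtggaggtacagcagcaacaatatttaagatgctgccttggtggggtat
Gpha2: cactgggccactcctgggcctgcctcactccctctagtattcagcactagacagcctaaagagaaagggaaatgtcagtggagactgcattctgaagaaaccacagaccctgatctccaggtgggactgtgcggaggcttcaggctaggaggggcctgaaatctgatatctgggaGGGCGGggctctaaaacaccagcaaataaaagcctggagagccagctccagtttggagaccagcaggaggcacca

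The capitals mark 3 CCAAT boxes in the Kera window, at positions -163, -107 and -74 from the RefSeq start, of which the first pair is on the minus strand and so reads ATTGG. Of 27025 genes with a window, 37.5% have a CCAAT box and 3.23% have at least 3. The Gpha2 window has 1 GC box, GGGCGG, at -75, and the Angptl7 window matched none of the 7 motifs. The motifs searched, each on both strands, were the TATA box TATAAA, the GC box GGGCGG, the CCAAT box, the AP-1 motif TGANTCA, the bicoid-type motif TAATCC, the homeodomain core TAATTA and the AP-2 motif GCCNNNGGC; matches of different motifs may overlap. Among the 21 leading genes that have a window, 12 hold a GC box, 57.1% against 35.4% of all genes, and 7 hold a CCAAT box, 33.3% against 37.5%. TAATCC was found in 0 of the 21, against 7.21% of all genes. A match is a string of letters and no evidence of binding.

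Kera lies in a run of proteoglycan genes on chromosome 10 of GRCm38, where GENCODE M21 places Dcn at 97479609 to 97518143, Lum at 97565128 to 97572703, Kera at 97606879 to 97613692 and Epyc at 97644068 to 97682454, all on the plus strand. Kera, Dcn and Lum were used by the limits, so their levels are a description. Dcn was at 45639 CPM in keratocytes and 50336 CPM in Kera-low stromal cells, and Lum at 6976 CPM and 5924 CPM. Epyc, the gene for epiphycan, was at 0.997 CPM in keratocytes and 23.8 CPM in Kera-low stromal cells.

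Of the 12 small leucine-rich proteoglycans listed, 8 reached 20 CPM in keratocytes or in all other cells, and all 8 were higher in keratocytes, with a median log2 ratio of 6.34. Of these 8, Dcn, Lum and Kera were in the limits, which fixed that they were higher and most of the summed level. Together the 12 took 6.10% of all keratocyte UMIs, against 6.19% in Kera-low stromal cells and 0.0164% in keratin-high cells. Their make-up differed between both stromal groups. Relative to Kera-low stromal cells, 5.99% of 6041 genes were at least 2-fold higher and 9.15% at least 2-fold lower. Kera, which the limits fixed, was the 1 listed proteoglycan that was higher. Of the 12, 6 were lower, with a median log2 ratio of -1.26 against -0.03 over all genes. Some of the 12, such as Aspn and Epyc, were measured only through their level in Kera-low stromal cells, which favoured lower calls. Fmod, fibromodulin, was at 447 CPM in keratocytes and 1337 CPM in Kera-low stromal cells. Omd, osteomodulin, was at 39.4 CPM and 388 CPM, and Aspn, asporin, at 1.496 CPM and 180 CPM in the same order. Bgn, biglycan, was at 2446 CPM and 1849 CPM.

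Several enzymes of keratan sulfate synthesis were higher in keratocytes than in Kera-low stromal cells as well. B3gnt7, which extends the keratan sulfate chain, had 132 UMIs in keratocytes (65.8 CPM) and 1 UMI in Kera-low stromal cells (1.70 CPM), and was at 0.123 CPM in keratin-high cells. Chst2, another sulfotransferase, was at 40.9 CPM in keratocytes and 8.48 CPM in Kera-low stromal cells, 4.82-fold higher (1.98 to 15.2). Papss1, which makes the sulfate donor, was at 166 CPM in keratocytes against 67.9 CPM in Kera-low stromal cells and 82.4 CPM in keratin-high cells. Dse, an epimerase that turns chondroitin into dermatan sulfate, was at 35.4 CPM and 50.9 CPM in the stromal groups. Of 13 synthesis genes measured between the stromal groups, 5 were at least 2-fold higher and 1 at least 2-fold lower in keratocytes. The shares over all genes were 5.99% and 9.15%. The median log2 ratio of the 13 was -0.04, against -0.03 over all genes. Summed, the 22 listed genes were at 988 CPM in keratocytes and 558 CPM in Kera-low stromal cells.

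All 16 collagen genes measured against all other cells were higher in keratocytes, beside 27.3% of all genes, with a median log2 ratio of 6.78. The 19 listed collagens took 3.21% of keratocyte UMIs. In all other cells they summed to 275 CPM, so some of the 16 were measured through keratocytes alone. Of 18 measured against Kera-low stromal cells, 4 were at least 2-fold higher and 5 at least 2-fold lower, beside 5.99% and 9.15% over all genes. The fibril-forming collagen V genes were among the higher. Col5a2 was at 1517 CPM against 575 CPM, and Col5a1 at 697 CPM against 251 CPM. Collagen VI, which forms beaded filaments between fibrils, was at 1576 CPM of Col6a3 against 660 CPM. Col1a1 and Col1a2, the collagen I genes, differed less, at 10145 CPM against 8148 CPM for Col1a1 and 10879 CPM against 8669 CPM for Col1a2. Collagen III ran the other way: Col3a1 was at 49.4 CPM in keratocytes and 835 CPM in Kera-low stromal cells. A Col3a1 UMI was seen in 40 of the 315 keratocytes.

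Collagen processing genes were higher in keratocytes than in all other cells for 16 of 16 measured, beside 27.3% of all genes. The 23 listed genes summed to 277 CPM in all other cells, so some of the 16 were measured through keratocytes alone. Between the stromal groups 1 of 17, Plod1, was at least 2-fold higher in keratocytes and 2, P4ha2 and Pcolce2, were at least 2-fold lower. These shares were near those over all genes, 5.99% and 9.15%. Plod1, a lysyl hydroxylase that prepares collagen for crosslinking, was at 473 CPM against 81.4 CPM, 5.80-fold higher (4.34 to 7.93). Sparc, a collagen-binding protein, was at 16044 CPM and 14966 CPM, and Serpinh1, the collagen chaperone, at 860 CPM and 689 CPM. Lox, lysyl oxidase, was at 171 CPM and 204 CPM.

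Outside the matrix, the leading genes included receptors, transporters and secreted regulators. Cd40, a receptor of the tumour necrosis factor receptor family, was at 113 CPM in keratocytes against 0.314 CPM in all other cells and 6.79 CPM in Kera-low stromal cells. It had a UMI in 47.6% of keratocytes, against 0.268% of keratin-high cells and 2.96% of Kera-low stromal cells, and after thinning in 11.7% of keratocytes and 0% of Kera-low stromal cells. A2m, a broad protease inhibitor, was at 9725 CPM in keratocytes, against 37.7 CPM in all other cells and 1581 CPM in Kera-low stromal cells. Its per-cell median was 9503 CPM, and 308 of the 315 keratocytes had an A2m UMI.

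Ntrk2, the receptor of brain-derived neurotrophic factor, was at 1583 CPM in keratocytes and 619 CPM in Kera-low stromal cells. Dkk2, a secreted Wnt antagonist, was at 1166 CPM and 439 CPM, and Slc4a4, a sodium bicarbonate cotransporter, at 230 CPM and 72.9 CPM. Aqp1, a water channel, was at 2219.9 CPM and 1242 CPM, against 5.44 CPM in keratin-high cells. Agtr2, a receptor of angiotensin II, Mme, the membrane protease neprilysin, and Crabp1, which binds retinoic acid, were each 2.84 to 3.03-fold higher than in Kera-low stromal cells. Pantr1, a long noncoding RNA, and Pou3f3, a transcription factor, start 926 bases apart on opposite strands of chromosome 1. They were at 299.6 CPM and 258 CPM in keratocytes, against 148 CPM and 114 CPM in Kera-low stromal cells; no source used here says whether the counting used strand.

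Genes known to restrain vessel growth were higher in keratocytes than in all other cells for 11 of 11 measured, with a median log2 ratio of 5.15, but not as a group than in Kera-low stromal cells, where 3 were higher and 4 lower. Among all genes 27.3% were higher than in all other cells. The 14 listed genes summed to 197 CPM in all other cells, so some of the 11 were measured through keratocytes alone. Against Kera-low stromal cells 5.99% of all genes were higher and 9.15% lower. Angptl7 was at 3732 CPM in keratocytes against 1705 CPM in Kera-low stromal cells. Sema3c, a secreted semaphorin, was at 551 CPM against 117 CPM. Serpinf1, pigment epithelium-derived factor, was at 3493 CPM against 3432 CPM. Tnmd, tenomodulin, was at 177 CPM against 541 CPM, and Timp3 at 143 CPM against 796 CPM. Kdr, which encodes a receptor of vascular endothelial growth factor, was at 124 CPM in keratocytes, 20.4 CPM in Kera-low stromal cells and 452 CPM in the 29 vascular cells. It had a UMI in 47.3% of keratocytes.

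Of the corneal crystallins, Aldh3a1 and Tkt were lower in keratocytes than in keratin-high cells but far above the level of the keratins. Aldh3a1, an aldehyde dehydrogenase, was at 4041 CPM in keratocytes and 10350.3 CPM in keratin-high cells, or 39.0% of that level. Tkt, transketolase, was at 1803 CPM and 4515 CPM, or 39.9%. In the vascular, mural, Schwann and immune cells Aldh3a1 was at 6.998% to 16.7% and Tkt at 6.04% to 17.3% of the keratin-high level, close to their Krt12 shares. Every keratocyte had a UMI of both genes, and Aldh3a1 ran from 265 to 9037 CPM per cell with a median of 3938 CPM. In Kera-low stromal cells Aldh3a1 was at 2365 CPM and Tkt at 507 CPM. The part of free epithelial RNA in these levels was not tested.

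Transcription factors of the periocular mesenchyme, the embryonic source of the stroma, were listed as well. Of 17 measured between the stromal groups, 0 were at least 2-fold higher and 2 were at least 2-fold lower in keratocytes, beside 5.99% and 9.15% over all genes, shares at which a list this short would hold few such genes. Twist1 was at 883 CPM in keratocytes and 565 CPM in Kera-low stromal cells, and Tfap2b at 399 CPM and 317 CPM. Runx1 was at 26.9 CPM and 259.6 CPM, with 95.4 CPM in keratin-high cells.

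Cell cycle transcripts were scarce, and not in keratocytes alone. The 16 listed genes summed to 138 CPM in keratocytes, 217 CPM in Kera-low stromal cells and 813 CPM in keratin-high cells. In injured stromal cells they summed to 274 CPM. Of 15 cell cycle genes measured against all other cells, 14 were at least 2-fold lower in keratocytes and 0 higher, beside 19.3% and 27.3% over all genes. Only 1 listed gene reached 20 CPM in keratocytes or Kera-low stromal cells. Most of the 15 were therefore measured through the other cells alone, which favoured lower calls, so the count is a description. Mki67, a proliferation marker, had 7 UMIs over all keratocytes (3.49 CPM) and was at 99.7 CPM in keratin-high cells, a small share of the keratin-high level, as for Krt12. Acta2, the smooth muscle actin of myofibroblasts, had 3 UMIs, and Tagln and Cnn1 had 0. Immediate early genes, which dissociation of tissue is known to induce, were high: their 18 transcripts summed to a median of 19664 CPM per keratocyte, against 21618 CPM in Kera-low stromal cells and 13440 CPM in keratin-high cells. Fos was at 5008 CPM in keratocytes. What the digestion contributed was not tested.

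Most of the chemokines, cytokines, matrix proteases and protease inhibitors that were listed and measured were lower in keratocytes than in Kera-low stromal cells. Some genes outside those lists went the other way: Cd40 was 16.6-fold, the protease inhibitor A2m 6.15-fold and Vcam1 3.03-fold higher in keratocytes. Of 10 chemokines and cytokines measured, 8 were at least 2-fold lower and 0 higher, with a median log2 ratio of -2.70. At most 4 of the list reached 20 CPM in keratocytes. Most of the 10 were therefore measured through Kera-low stromal cells alone, which favoured lower calls, so count and median are a description. Among 14 matrix proteases and their inhibitors 9 were lower and 0 higher, beside 9.15% and 5.99% over all genes. Mmp3, stromelysin, was at 44.9 CPM in keratocytes and 3310 CPM in Kera-low stromal cells, 73.8-fold lower (59.7 to 92.2). It had a UMI in 7.94% of keratocytes and 71.9% of Kera-low stromal cells, or 5.08% and 57.8% after thinning. Cxcl5, a neutrophil-attracting chemokine, was at 10.5 CPM and 746 CPM, and Cxcl12 had 2 UMIs against 92.

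The lowest ratio belonged to Penk, which encodes the enkephalin precursor: 3 UMIs in keratocytes against 214 in Kera-low stromal cells, or 1.496 CPM against 363 CPM (interval of the ratio 82.0 to 1186-fold). Stc1, the hormone stanniocalcin, had 6 UMIs against 262. Tnc, the wound matrix protein tenascin-C, was at 5.48 CPM against 180 CPM, and Tnn, tenascin-N, had 1 UMI against 96. Ly6a, known as Sca-1 on mouse fibroblasts, was at 4.99 CPM against 336 CPM; it belongs to a family of close copies, among which reads can be shared. Of 9 fibroblast markers of other tissues measured, Ly6a included, 6 were at least 2-fold lower and 1, dermatopontin (Dpt), was at least 2-fold higher in keratocytes, with a median log2 ratio of -3.25. The shares over all genes were 9.15% lower and 5.99% higher. At most 4 of these markers reached 20 CPM in keratocytes. Most of the 9 were thus measured through Kera-low stromal cells alone, which favoured lower calls, so count and median are a description. Clu and Cyp26b1, a retinoic acid hydroxylase, were also lower, at 18.9 CPM against 341 CPM and 7.98 CPM against 190.0 CPM. Keratin-high cells held 34.5 CPM of Ly6a, 190 CPM of Clu and 46.2 CPM of Cyp26b1. Immune markers summed to 15.95 CPM in keratocytes and 98.4 CPM in Kera-low stromal cells; their part in these differences was not tested.

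Among the 15 genes with the largest ratios over Kera-low stromal cells were Psat1, Ass1, F3 and Art4. Psat1, an enzyme of serine synthesis, was at 175 CPM against 11.9 CPM, 14.7-fold higher (7.08 to 36.9), with 42.0 CPM in keratin-high cells. Ass1, argininosuccinate synthase, was at 241 CPM against 23.8 CPM, with 22.1 CPM in keratin-high cells. F3, tissue factor, was at 188 CPM against 20.4 CPM, with 281 CPM in keratin-high cells. Art4, an ADP-ribosyltransferase, was at 149 CPM against 22.1 CPM. Apoe, a lipid carrier outside those 15 and described for its variation between cells, was at 2151 CPM against 477 CPM; the 15 immune cells held 14126 CPM of Apoe.

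**Figure D3:**
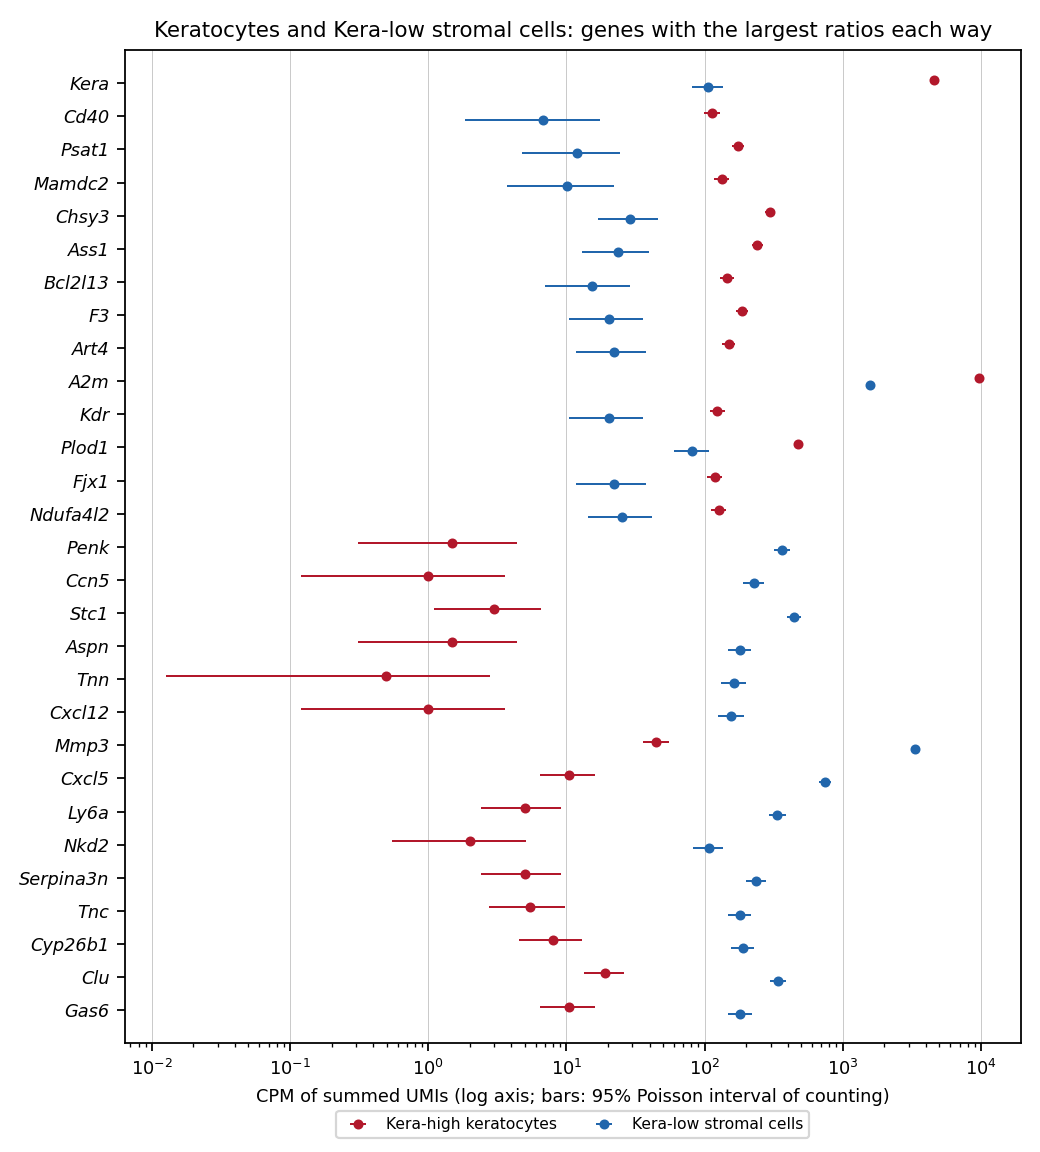
Level (CPM of summed UMIs, log axis) in keratocytes (red) and Kera-low stromal cells (blue) of 14 genes with the largest ratios among those higher in keratocytes and 15 among those lower; bars are 95% Poisson intervals. Genes from Penk downward, at 0.499 to 44.9 CPM in keratocytes, are all above 100 CPM in Kera-low stromal cells.

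Within the keratocytes, 11 of 1246 genes of at least 100 CPM had a variance between cells more than 10 times that of counting alone, and the median gene had 1.13 times. Malat1, a nuclear long noncoding RNA, stood first at 42.0 times, followed by Gpha2 at 37.3, Apoe at 34.1, Fmod at 25.7, Igfbp2 at 16.8 and Angptl7 at 13.8 times. Fmod had a UMI in 213 of the 315 cells, with a median of 236 CPM and a highest value of 23916 CPM. The even genes included Ntrk2, whose middle 50% of cells lay between 1095 and 2025 CPM.

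Gpha2 encodes an alpha subunit of a glycoprotein hormone, and in the mouse cornea it is known as a marker of quiescent limbal epithelial stem cells. It was at 1135 CPM in keratocytes, against 229 CPM in Kera-low stromal cells and 171 CPM in keratin-high cells. In vascular, mural and Schwann cells it had 0 UMIs, and it was at 19.6 CPM in immune cells. A UMI was seen in 205 of 315 keratocytes (65.1%), and 80 of them (25.4%) had at least 1000 CPM. The keratocytes, 4.67% of the cells, held 13.9% of all Gpha2 UMIs of the library.

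Krt15 and Krt12 were no higher in keratocytes with much Gpha2, and the source of the Gpha2 UMIs was not tested. In the 110 cells with no Gpha2 UMI, the 125 with under 1000 CPM and the 80 with at least 1000 CPM, Krt15 was at 91.6, 78.7 and 67.7 CPM, and Krt12 at 1079.9, 940.1 and 936 CPM. The 260 keratin-high cells with at least 1000 CPM of Gpha2 had 4209 CPM of Krt15 and 8188 CPM of Krt14. Kera was at 4650 CPM in the keratocytes with most Gpha2 and 4450 CPM in those with none. Between these 2 sets of keratocytes, 3 of 1370 genes were at least 2-fold higher and 6 at least 2-fold lower, Gpha2 itself among the higher. Hspa1a, a heat shock gene, was at 118 CPM in the cells with most Gpha2 and 333 CPM in those with none.

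When the keratocytes were ranked by Kera and cut into 3 groups of 105, a choice made after the data were seen, the medians of Kera were 2888, 4429 and 5978 CPM from the lowest to the highest group. Median depth was 5913, 6936 and 6671 UMIs in the same groups. Mamdc2 was at 65.9, 131 and 188 CPM, Plod1 at 330, 465 and 598 CPM, Apoe at 1306, 2321 and 2667 CPM, and A2m at 7426, 9850 and 11473 CPM. These genes were among those higher in keratocytes than in Kera-low stromal cells. Kera set both that comparison and the groups here, so the trend is a description and no separate support. Angptl7 was flat, at 3752, 3825 and 3621 CPM, as were Dcn and Krt12.

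Some genes that were higher in Kera-low stromal cells were also higher toward low Kera, and others were not. Fmod was at 866, 292 and 263 CPM from the lowest to the highest group, Igfbp7, a secreted binding protein, at 614, 216 and 137 CPM, and Timp3 at 267, 98.2 and 87.8 CPM. Mmp3 was at 134, 5.53 and 12.7 CPM and Igfbp6 at 114, 2.76 and 4.25 CPM; an Igfbp6 UMI was seen in 17 keratocytes and a Mmp3 UMI in 25. Col3a1, in contrast, was at 43.4, 48.4 and 55.2 CPM from the lowest to the highest group, with overlapping intervals, and Ogn at 560.3, 567 and 516 CPM. Of 1370 genes of at least 100 CPM in the lowest or highest group, 20 were at least 2-fold higher and 5 at least 2-fold lower in the lowest group. The groups were cut from a per-cell level, so they are ranges of one population and no cell types.

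**Figure D4:**
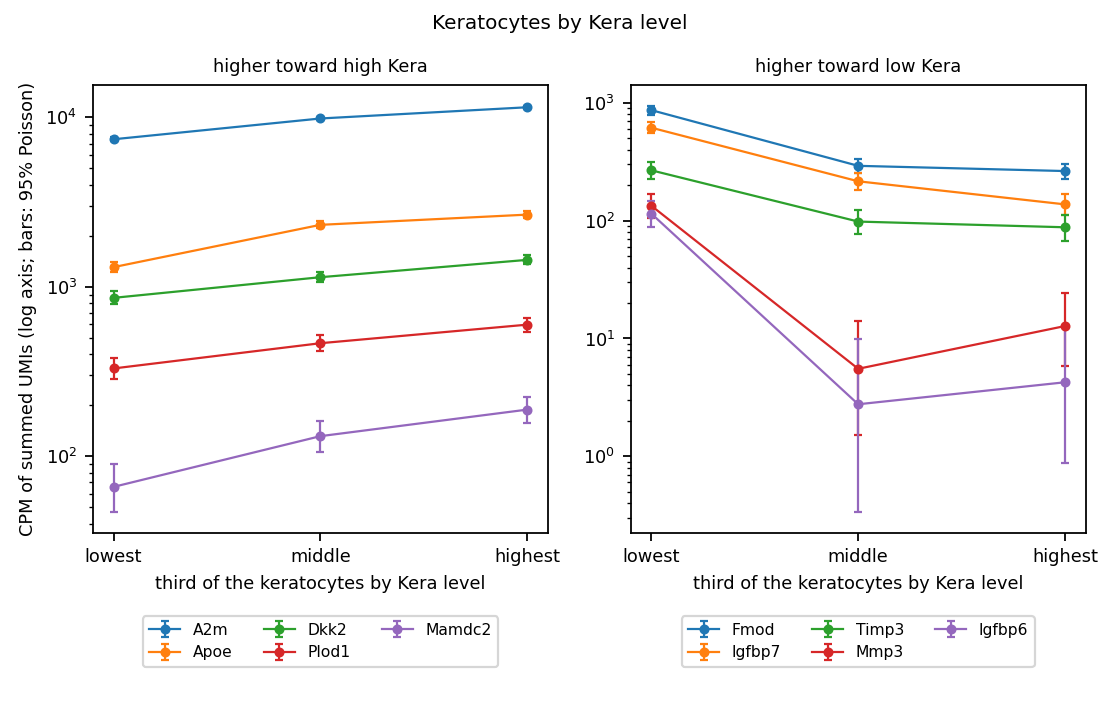
Level (CPM of summed UMIs, log axis) of 10 genes in the 315 keratocytes cut into 3 groups of 105 by their Kera level (horizontal axis, lowest to highest); bars are 95% Poisson intervals of counting. Mamdc2 goes with Kera, at 65.9, 131 and 188 CPM, and Igfbp6 and Mmp3 are highest in the lowest group.

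In the injured library 715 cells passed the keratin and stromal limits (8.78% of 8146 cells), and 19 of them passed the Kera limit too, 0.233% of the library (0.140% to 0.364%). Relative to the 315 keratocytes, 10.3% of 5940 measured genes were at least 2-fold higher and 8.47% at least 2-fold lower in the injured stromal cells, with a median log2 ratio of 0.01. The injured stromal cells are all stromal cells of that library, not chosen by Kera, and were deeper, at a median of 11557 UMIs against 6469. For part of the genes below, the level in Kera-low stromal cells of the uninjured library is therefore given as well.

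Kera and several other genes high in keratocytes were much lower in injured stromal cells. Kera was at 153 CPM in injured stromal cells and 4568 CPM in keratocytes, 29.9-fold lower (28.2 to 31.7), with a UMI in 40.4% of injured stromal cells. Kera chose the keratocytes, so that ratio is a description. Angptl7 was at 152 CPM against 3732 CPM, 24.5-fold lower (23.1 to 26.0), and Kera-low stromal cells stood between at 1705 CPM. Cd40 was at 1.999 CPM against 113 CPM, Mamdc2 at 4.12 CPM against 133 CPM, and Col13a1, a transmembrane collagen, at 3.41 CPM against 117 CPM. Chst5 was at 33.5 CPM against 294 CPM, and B3gnt7 at 2.12 CPM against 65.8 CPM. Uninjured Kera-low stromal cells were also below the keratocytes, with Cd40 at 6.79 CPM, Mamdc2 at 10.2 CPM, Col13a1 at 37.3 CPM and Chst5 at 67.9 CPM.

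Not every keratocyte gene followed. Agtr2 was at 408 CPM in injured stromal cells and 113 CPM in keratocytes, Cemip, which takes part in hyaluronan breakdown, at 246 CPM and 113 CPM, and Vcam1, an adhesion molecule, at 375 CPM and 277 CPM. Kera-low stromal cells held 37.3 CPM of Agtr2, 39.0 CPM of Cemip and 91.6 CPM of Vcam1. Col1a1 was at 10309 CPM and 10145 CPM, and Bgn at 3414 CPM and 2446 CPM. Dcn was lower, at 18659 CPM in injured stromal cells against 45639 CPM in keratocytes. Lum had per-cell medians of 4764 CPM and 6869 CPM in the same order. Dcn and Lum also served to pick the injured stromal cells, so their levels are a description. Col3a1 was at 4449 CPM in injured stromal cells, 49.4 CPM in keratocytes and 835 CPM in Kera-low stromal cells. Aldh3a1 was at 311 CPM in injured stromal cells and 4041 CPM in keratocytes, and Tkt at 150.4 CPM and 1803 CPM. Kera-low stromal cells held 2365 CPM of Aldh3a1 and 507 CPM of Tkt. Keratin-high cells of the injured library held 304 CPM of Aldh3a1 and 599 CPM of Tkt.

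Several of the largest differences were in epithelial genes. Krt12 was at 0.588 CPM in injured stromal cells and 986 CPM in keratocytes, and Lypd2 and Slurp1, both secreted epithelial proteins, had 0 UMIs in injured stromal cells against 625 and 409 UMIs in keratocytes. In keratin-high cells the same genes were at 25.4 CPM of Krt12 in the injured library and 19581 CPM in the uninjured library. Lypd2 was at 0.0543 CPM in keratin-high cells of the injured library and 5903 CPM in those of the uninjured library. Aqp5 and Dapl1 were likewise at 3.99% and 5.12% of the keratin-high level in the keratocytes. For these 5 genes the part of free epithelial RNA was not tested.

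Higher in injured stromal cells were genes that the keratocytes hardly expressed. Timp1, an inhibitor of matrix proteases, was at 1737 CPM in injured stromal cells against 1.496 CPM in keratocytes, where it had 3 UMIs, a ratio of 1161 with an interval of 397 to 5632. Mmp3 was at 20348 CPM against 44.9 CPM, 454-fold higher (369 to 564), and Serpina3n, a serine protease inhibitor, at 2948 CPM against 4.99 CPM. Keratin-high cells of the uninjured library held 10.7 CPM of Timp1 and 2.79 CPM of Serpina3n. Lcn2, lipocalin-2, had 0 UMIs in keratocytes and 4590 in injured stromal cells, at least 361-fold higher with 3 UMIs set as the floor over the keratocytes. Ptx3 and Dio2 also had 0 UMIs in keratocytes and were at least 131-fold and at least 126-fold higher by the same floor. The lower limits of the exact intervals of counting, which allow for more than 3 UMIs, were 293-fold for Lcn2, 107-fold for Ptx3 and 102-fold for Dio2. All 15 chemokines and cytokines measured were at least 2-fold higher in injured stromal cells, beside 10.3% of all genes, with a median log2 ratio of 4.85. Only 4 of the list reached 20 CPM in keratocytes or in all other uninjured cells. Most of the 15 were therefore measured through the injured stromal cells alone, which favoured higher calls, so count and median are a description. Ccl2 was at 1435 CPM against 99.2 CPM and Cxcl14 at 2062 CPM against 46.4 CPM.

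Kera-low stromal cells of the uninjured mouse already held part of these genes. Mmp3 was at 3310 CPM in them, Cxcl5 at 746 CPM, Serpina3n at 238 CPM, Ccn5 at 227 CPM and Aspn at 180 CPM, all far above the keratocytes. Saa3, an acute phase protein, was not among them, with 1291 CPM in injured stromal cells, 0.499 CPM in keratocytes and 3.39 CPM in Kera-low stromal cells. Saa3 and Serpina3n, too, belong to families of close copies. Timp1 was at 40.7 CPM in Kera-low stromal cells. Whether injured stromal cells derive from keratocytes or from Kera-low stromal cells cannot be told apart here.

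**Figure D5:**
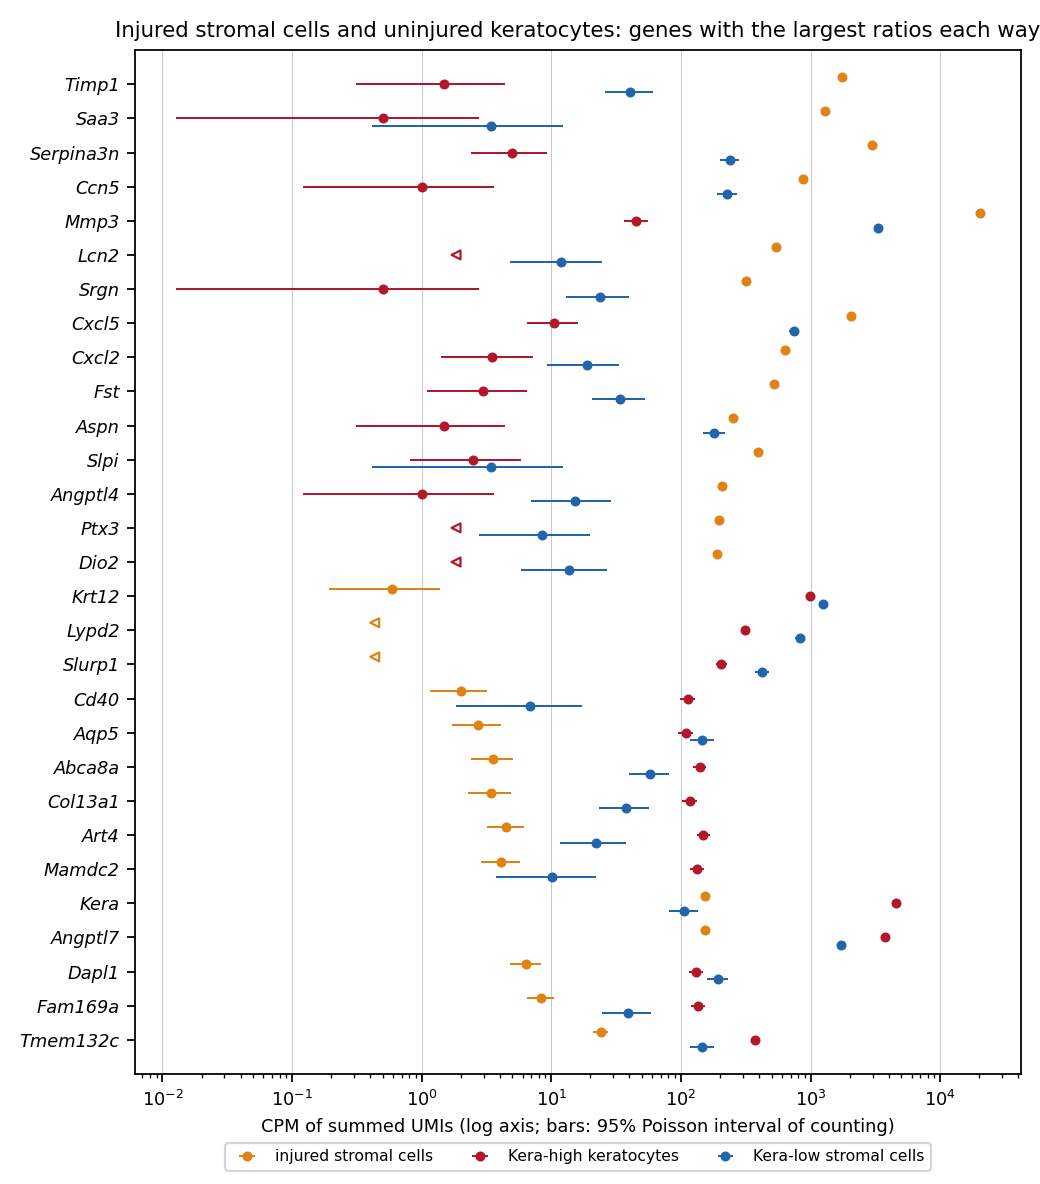
Level (CPM of summed UMIs, log axis) in injured stromal cells (orange), keratocytes (red) and Kera-low stromal cells (blue) of 15 genes with the largest ratios among those higher in injured stromal cells and 14 among those lower; bars are 95% Poisson intervals, and open triangles mark the upper bound where no UMI was seen. Krt12, Lypd2, Slurp1, Aqp5 and Dapl1 are epithelial genes, at 3.99% to 5.28% of the keratin-high level in keratocytes.

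The 19 injured cells that passed the whole rule, at a median of 10483 UMIs, had lower Kera than the keratocytes of the uninjured library, 1466 CPM against 4568 CPM. Angptl7 was at 1084 CPM in them against 3732 CPM, and A2m at 2853 CPM against 9725 CPM. They carried Mmp3 at 7289 CPM against 44.9 CPM and Serpina3n at 2237 CPM against 4.99 CPM. Cd40 had 2 UMIs over the 19 cells and Mamdc2 had 1. The limit of 1000 CPM fixed their Kera level, so it is a description. Agtr2 was at 425 CPM in the 19 cells, 408 CPM in all injured stromal cells and 113 CPM in the keratocytes. Col11a1 was at 584, 237 and 182 CPM in the same order.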

How the data were processed

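Per the file headers the authors' deposited matrices were made with Cell Ranger 7.0.1 and hold raw UMI counts for 32285 genes; the submitters' processing notes name GRCm38. The sources used here give no 10x chemistry, annotation release or strand setting. Dissected cornea and limbus were freed of most conjunctiva and digested with liberase and then trypsin, per the labels' protocols.

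Barcodes under 1000 UMIs or over 20% mitochondrial UMIs were dropped. UMIs were summed per population and divided by their total to give CPM, so deeper cells weigh more. Genes of at least 20 CPM in either population were measured, and a ratio of at least 2 counted as higher or lower, without a test, since each group has 1 library. A gene could pass through 1 population alone, where it is high, so counts and medians over gene lists lean toward that population. Counts under 3 over a population were set to 3 in ratios. Intervals are exact, at 95%, and treat UMIs and cells as independent. The keratin-high, vascular, mural, Schwann and immune populations were gated on marker levels after the data were seen, and no clustering was done. Doublets were not removed, since the rule has no such step: the threshold that Scrublet set for itself gave 27 uninjured and 0 injured cells (0.401% and 0%) and so had not worked, and removing the highest scores at an assumed 5.99% and 7.52% was an alternative. Those 404 uninjured cells held 1 keratocyte.

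The members, the 33 gene lists and the rules were chosen with earlier results of these data known. Named genes are those with the largest ratio, 30 against all other cells and 15 in each direction otherwise, among genes of at least 100 CPM seen in at least 20% of cells of the higher group; mitochondrial, ribosomal, hemoglobin, Xist, Y-linked and predicted genes were left out. 1 gene so named in both stromal comparisons is not reported here, though counts over all genes and alternatives include it. Further genes are members of the lists, or were picked for their variation between cells after their values were seen. Coordinates are from GENCODE M21, which holds 32158 of the gene IDs. Calling by ratio was tested on simulated counts. Alternatives moved the cell filters, the limits of the rule, the filter on low values, the normalization, the weight of cells and the depth. Python 3.11.15, numpy 2.4.6, scipy 1.17.1, pandas 2.3.3 and scanpy 1.11.5 were used.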

Additional observations from a re-analysis of the deposited data

How the results depend on the processing

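The keratocyte share stayed within its own interval under every alternative that moved a filter or a limit of the rule, at 4.32% to 4.99% of cells. Counts of genes at least 2-fold different depended on the filter on low values. With genes of at least 5 CPM there were 3004 higher and 1947 lower in keratocytes than in all other cells, against 1707 and 1206 with 20 CPM. Against Kera-low stromal cells they were 640 higher and 1550 lower, against 362 and 553, and in injured stromal cells over keratocytes 1217 higher and 1009 lower, against 613 and 503. With at least 100 CPM the counts were 520 and 398, 79 and 131, and 198 and 150 for the same comparisons. With every cell thinned to 1000 UMIs, 1217 genes were lower in keratocytes than in Kera-low stromal cells and 806 lower in injured stromal cells than in keratocytes; thinned sums hold fewer UMIs, so more genes rest on few counts. The named genes gave 810 values over 9 alternatives, and 810 kept their sign and at least a 2-fold ratio, but only 650 lay within the counting interval of the reported ratio. Among the ratios that moved far, by 3.26 on the log2 scale for Lypd2 (injured stromal cells over keratocytes) and 2.75 for Ccn5 (keratocytes over Kera-low stromal cells), did so in cells thinned to 1000 UMIs. With a Kera limit of 500 CPM, Kera over Kera-low stromal cells moved by 2.41; with 2000 CPM, Cd40 moved by 1.42 in that comparison. Without the cells of the highest doublet scores, Kera over all other cells moved by 1.45. No paired analysis was possible because each group has 1 library. Depth limits genes with few UMIs over the 315 keratocytes, where 1 UMI is worth 0.499 CPM, and the Kera-low stromal cells hold fewer UMIs still, 589458 in all.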

Other observations

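Collagen genes that lie side by side went opposite ways between the stromal groups. Col3a1 and Col5a2 lie on chromosome 1 with their annotated 3′ ends 24615 bases apart. Col5a2 was at 1517 CPM in keratocytes and 575 CPM in Kera-low stromal cells, and Col3a1 at 49.4 CPM and 835 CPM. On chromosome 13 the proteoglycan genes Aspn, Omd and Ogn lie within 80059 bases, and all were lower in keratocytes than in Kera-low stromal cells; Ogn was at 547 CPM against 1055 CPM.

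Of 11 glycolysis genes measured between the stromal groups, 0 were at least 2-fold different, beside 5.99% of all genes higher and 9.15% lower. Among the insulin-like growth factor binding proteins, Igfbp2 was at 14282 CPM in keratocytes and 8360.2 CPM in Kera-low stromal cells, while Igfbp6 was at 35.4 CPM and 604 CPM and Igfbp7 at 303 CPM and 1439 CPM. Gpha2, the hormone subunit gene seen in keratocytes, was at 754 CPM in injured stromal cells against 1135 CPM in keratocytes, and at 1938 CPM in keratin-high cells of the injured library.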
